A study of Mus musculus with 6 samples.

Results

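Terminal oligopyrimidine (TOP) mRNAs that encode neither a ribosomal protein nor an elongation factor were examined through 4 genes, *Tpt1*, *Pabpc1*, *Npm1* and *Nap1l1*. They were chosen by name as known TOP genes of this kind and are 4 of the 23698 genes in the count tables. Each had 1 entry, and none shared its entry with another gene name.

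The data describe cultured squamous cell carcinoma cells (SCCc) and ask how densely ribosomes occupy each mRNA. The labels give them as primary keratinocytes from back skin of mice at postnatal day 0, with the genotype HrasG12V; Tgfbr2 fl/fl KO, at passages 10 to 15, and name no treatment and no strain for them. The same genotype and passages hold for 1 ribosome profiling library and 2 RNA-seq libraries. Ribosome profiling sequences the mRNA fragments covered by ribosomes, called footprints, and RNA-seq measures how much of each mRNA is present. With 1 condition, every value below compares genes or regions within SCCc. Ribosome profiling was analysed from 1 library, with no replicate among the files used. Further SCC and wild-type libraries that the study names were not analysed here. Nothing in the labels says whether the RNA-seq replicates are separate cultures, so their spread may be technical. In these bulk samples, fewer cells with an mRNA and less of it per cell cannot be told apart.

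The depth of the ribosome profiling library was 3549555 counts on exons, and that of the RNA-seq replicates was 10707930 and 14003713. Of the exon counts, 90.1% were on coding sequence (CDS) in ribosome profiling, against 67.3% and 68.7% in the RNA-seq replicates. The modified genes were both present. *Hras* had 128 footprints on its CDS, while its exons had 1179 and 1619 RNA-seq counts. *Tgfbr2* had 193 footprints, and 3150 and 3958 RNA-seq counts. These counts cover whole genes and not single exons, so they do not check the deleted part of *Tgfbr2*. All 6 keratinocyte markers were detected, with *Krt5* the most abundant at 186784 and 290816 RNA-seq counts, and their sum made up 2.93% and 3.35% of the exon counts. The 5 fibroblast markers summed to 480 and 1032 RNA-seq counts, with *Col3a1* the most abundant at 232 and 428, and to 10 footprints. The 4 melanocyte, 3 immune and 2 endothelial markers summed to 120, 7.98 and 6 RNA-seq counts in replicate 1 and to 164, 27.1 and 13 in replicate 2. Among them *Cd3e* was at 0 in the 3 libraries, and a count of 0 allows up to 3 counts. The 3 differentiated keratinocyte markers summed to 334 and 515 RNA-seq counts, with *Lor* at 2 in both replicates and at 0 footprints. The part of such cells in the results was not tested.

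Next to its cap, a TOP mRNA opens with C and then a run of further pyrimidines. Together these mRNAs encode much of the translation machinery. When the kinase complex mTORC1 is inactive, the protein LARP1 binds the cap and this run, and TOP mRNAs are held back from ribosomes, while growth signals release them. *Pabpc1* encodes the cytoplasmic protein that coats poly(A) tails, *Npm1* the nucleolar histone chaperone nucleophosmin, *Nap1l1* a nucleosome assembly chaperone and *Tpt1* the translationally controlled tumour protein TCTP.

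The annotated 5′ ends show which of the 4 genes carry the motif. The first 25 bases are given from GENCODE M21 transcripts on GRCm38, with the opening run of pyrimidines in capitals.
Pabpc1-201: CCCCTTCTCCCCggcggttagtgct
Nap1l1-207: CTTTTTTagcgccatctgctcgcgg
Tpt1-206: CTTTTCCgcccgctcccccctcccc
Npm1-203: CCTTggcgtgattccgtcctgcgcg

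The *Pabpc1* end lies on the minus strand at chr15:36608949-36608973, in the exonic 5′UTR of Pabpc1-201, and opens with 12 pyrimidines. The *Nap1l1* end lies on the plus strand at chr10:111473227-111473251, in the 5′UTR of protein coding transcripts, and opens with 7. Another *Nap1l1* transcript, Nap1l1-201, starts 4 nt upstream and opens with G. The *Tpt1* end lies on the plus strand at chr14:75845331-75845355 and belongs to a transcript with a retained intron, although the same bases are in the 5′UTR of 2 protein coding transcripts. Those transcripts, Tpt1-201 and Tpt1-205, start 238 nt and 29 nt upstream and did not meet the definition. The *Npm1* end lies on the minus strand at chr11:33163052-33163076 in the 5′UTR and opens with 4 pyrimidines, 1 short of the C and at least 4 pyrimidines required here. A TOP opening by this definition was thus annotated for 3 of the 4 genes over any transcript and for 2 of 4 over protein coding transcripts, against 8.52% and 5.12% of 21877 genes. *Npm1* is kept as a member by its name, and the 5′ ends used in SCCc were not measured here.

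*Pabpc1* carries a second feature in its leader. The PABPC1 protein is known to bind an A-rich stretch in the 5′UTR of its own mRNA and to repress its translation. The 30-base window with the most A bases in Pabpc1-201 lies at positions 105 to 134 of the 467-nt 5′UTR, at chr15:36608840-36608869 on the minus strand. Capitals mark runs of at least 3 A.
Pabpc1-201 5′UTR: gAAAAAAcccAAAAAAAAtttacAAAAAAA

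This window holds 22 A in 30 bases. Of 20045 genes with a 5′UTR of at least 30 nt, 1.19% had a window as rich or richer in some protein coding transcript. The genes were not matched for 5′UTR length. The related gene *Pabpc4* was richer still, with 25 A in 30 bases of the Pabpc4-204 5′UTR, a level that 0.409% of these genes reached. Whether either window is bound in SCCc was not tested.

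Footprints and mRNA set *Pabpc1* apart from the other 3 genes. Its mRNA was among the most abundant, while its CDS carried fewer footprints per length than that of *Npm1*, *Tpt1* or *Nap1l1*. Density was expressed as RPKM, the counts divided by the counted length and by the exon counts of the library. To obtain translational efficiency, the CDS density of footprints was divided by the exon density of RNA-seq averaged over both replicates, and the result was put on the log2 scale relative to the median gene. It was computed for 9863 genes with an RPKM above 1 in both RNA-seq replicates, a base mean (the size-factor normalised count averaged over the 3 libraries) above 25 and footprints on the CDS, and the 4 genes passed these filters.

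*Pabpc1* had 1787 footprints on its CDS, while its exons had 35932 and 42550 RNA-seq counts. Its RPKM was 264 in footprints and 1190 and 1077 in the RNA-seq replicates. It was the gene with rank 39 in mRNA level and rank 631 in footprint density among the passing genes. The mRNA of the poly(A)-binding protein was thus abundant but sparsely covered. Its log2 translational efficiency was −2.45 ± 0.09 (SD over the 2 RNA-seq replicates), at percentile 4.39 of the passing genes.

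*Npm1* had 11000.4 footprints on its CDS, while its exons had 12918 and 15298 RNA-seq counts. Its RPKM was 3514 in footprints and 702 and 636 in the RNA-seq replicates, ranks 35 and 68 for footprints and mRNA. Both were near the top of the passing genes. The log2 translational efficiency of *Npm1* was 2.05 ± 0.09, at percentile 93.7. *Npm1* therefore carried 13.3 times the footprint density of *Pabpc1* on 0.590 times the mRNA, a difference of 4.50 in log2 translational efficiency.

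*Tpt1* had 588 footprints on its CDS, while its exons had 511 and 1166 RNA-seq counts. Its RPKM was 1265 in footprints and 151 and 263 in the RNA-seq replicates. The replicates disagreed on *Tpt1* more than on the other 3 genes. Its log2 translational efficiency was 2.27 ± 0.58, at percentile 95.1, with 2.73 against replicate 1 and 1.91 against replicate 2.

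*Nap1l1* had 996 footprints on its CDS, while its exons had 1898 and 2183 RNA-seq counts. Its RPKM was 617 in footprints and 71.8 and 63.1 in the RNA-seq replicates. Its mRNA was the least abundant of the 4 and its translational efficiency the highest, at 2.85 ± 0.12 and percentile 97.4. Without division by length it was the lowest of the 3 genes above the median, at 1.42 beside 2.01 for *Tpt1* and 2.10 for *Npm1*.

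**Figure D1:**
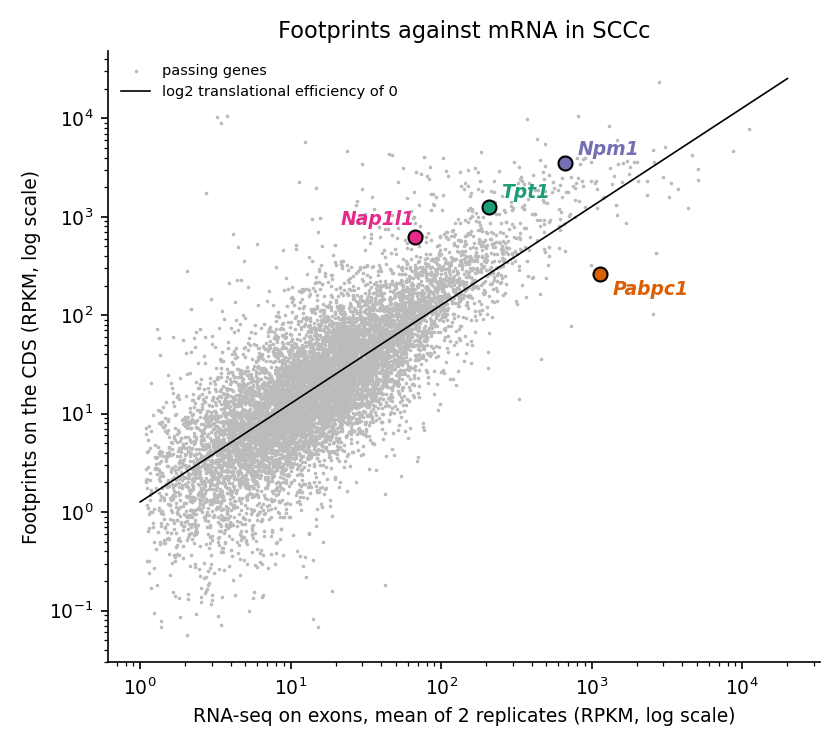
Footprint RPKM on the CDS (y axis, log scale) against mean RNA-seq RPKM on exons (x axis, log scale) for the 9863 passing genes in grey, with the 4 TOP genes coloured and a line at a log2 translational efficiency of 0. *Npm1*, *Tpt1* and *Nap1l1* lie above the line, at 2.05, 2.27 and 2.85, and *Pabpc1* lies below it, at −2.45.

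Of the 4 genes, 3 had a log2 translational efficiency above 1, where 20.8% of the passing genes did, and 1 was below −1, where 21.1% did. Their median was 2.16, beside 0 for all passing genes by construction. In order, *Nap1l1* exceeded *Tpt1* by 0.58, less than the SD of 0.70 of that difference over the RNA-seq replicates, and *Tpt1* exceeded *Npm1* by 0.22, with an SD of 0.67. With RNA-seq on exons, these neighbours did not differ beyond their spread. *Npm1* exceeded *Pabpc1* by 4.50 against each replicate. The counting error of the log2 efficiency was 0.07 for *Tpt1*, 0.03 for *Pabpc1*, 0.02 for *Npm1* and 0.05 for *Nap1l1*. These errors and the intervals given for single regions account for counting alone. Reads copied by PCR count more than once, and the errors leave out the variation that a second ribosome profiling library would show.

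The part of each CDS that was counted differed among the 4 genes. All 1908 nt of the annotated *Pabpc1* CDS and 90.7% of the 972 nt of *Npm1* were counted, against 36.5% of the 1248 nt of *Nap1l1* and 25.4% of the 516 nt of *Tpt1*. *Tpt1* has 6 pseudogenes named after it in the annotation and overlaps the gene of the small RNA *Snora31*, and *Nap1l1* overlaps *Gm25117*. With these overlaps and the small counted part, the values of both are uncertain. The relatives *Npm3*, *Nap1l4* and *Pabpc4*, compared below, also overlap other genes, with 100%, 95.7% and 22.9% of the CDS counted. Pseudogenes under other names were not searched for, for any of these genes. Whether reads were divided with pseudogenes or overlapping genes was not tested. With RNA-seq taken over the same CDS positions as the footprints, the log2 translational efficiency was 1.93 for *Tpt1*, −2.47 for *Pabpc1*, 2.55 for *Npm1* and 2.58 for *Nap1l1*. The difference between *Nap1l1* and *Npm1* was then 0.03, where it was 0.80 with RNA-seq on exons. *Tpt1* was then below *Npm1*, by a difference of −0.62, where it was above by 0.22 on exons. The position of *Pabpc1* far below the other 3 genes was the same on either count.

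On exons, the RNA-seq replicates differed by less than the SD over genes for 3 of the 4 members. The log2 ratio of replicate 2 to replicate 1 on exons was −0.14 for *Pabpc1*, −0.14 for *Npm1* and −0.19 for *Nap1l1*, within the SD of 0.20 over 9857 genes with at least 10 counts in both. For *Tpt1* it was 0.80, and 15 of these genes, *Tpt1* included, reached that ratio. On the 3′UTR the ratio was −0.48 for *Pabpc1*, at percentile 8.41 of 8494 genes, further from their median of −0.11 than the SD of 0.28, and −0.30 for *Npm1*, at percentile 22.5 and within it. The gap of *Tpt1* lay mainly on the 5′UTR. Of the *Tpt1* exon counts, 8.87% (95% Clopper-Pearson interval 6.55% to 11.7%) were on the 5′UTR in replicate 1 and 41.0% (38.1% to 43.8%) in replicate 2, 45.3 and 477 counts on 156 counted nt. The log2 ratio of replicate 2 to replicate 1 was 3.01 on the *Tpt1* 5′UTR, the highest of 4023 genes compared on that region, against 0.22 on its CDS and −0.21 on its 3′UTR. Outside the 5′UTR, the *Tpt1* replicates were thus within the SD over genes, 0.24 on the CDS and 0.28 on the 3′UTR. The source of these 5′UTR counts was not tested.

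The 4 genes also differed in where their footprints and RNA-seq reads fell. Each had a higher footprint density on the CDS than on either UTR, while the spread of RNA-seq reads over the regions differed among the 4 genes.

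**Figure D2:**
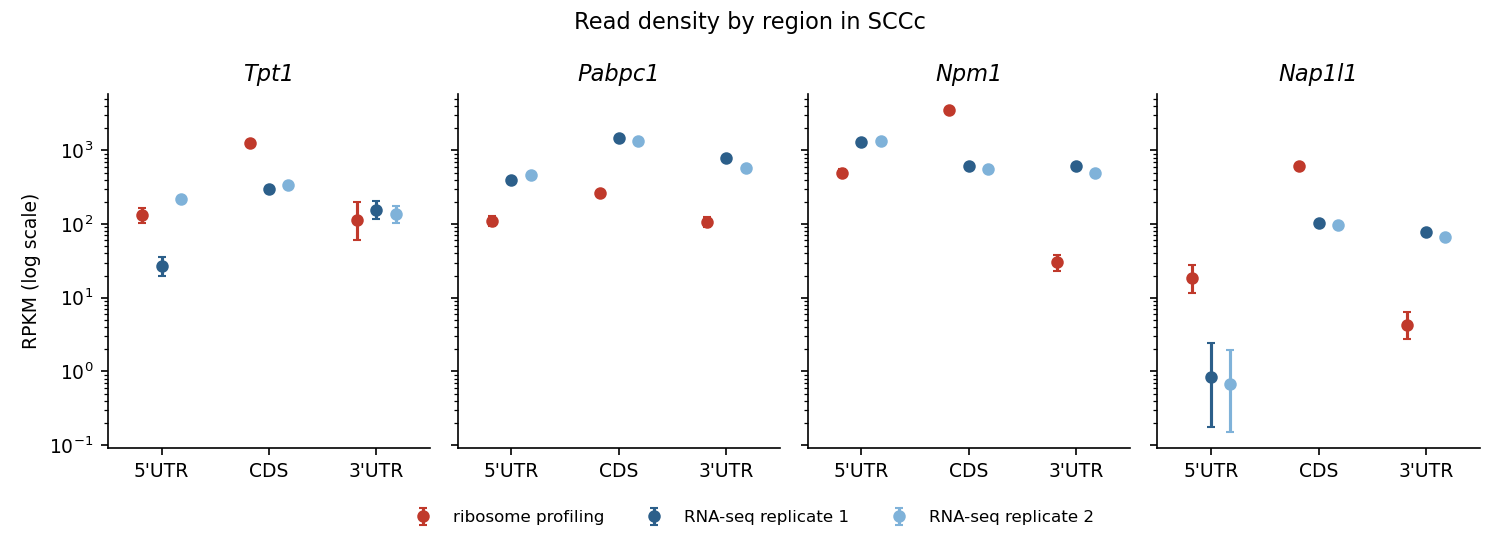
RPKM (log scale) of the 4 TOP genes on the 5′UTR, CDS and 3′UTR for ribosome profiling (red) and both RNA-seq replicates (dark blue for replicate 1, light blue for replicate 2), with bars for the 95% Poisson interval of the counts. *Pabpc1* is the gene with footprints below RNA-seq in the 3 regions, and the RNA-seq replicates of *Tpt1* part on the 5′UTR, at 27.1 and 219.

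On the *Pabpc1* 5′UTR, 184 footprints (95% Poisson interval 158 to 212) were counted over 467 nt, an RPKM of 111 beside 264 on the CDS. RNA-seq on the same region gave an RPKM of 398 and 468, beside 1475 and 1344 on the CDS. The log2 ratio of 5′UTR to CDS density was −1.25 (95% Clopper-Pearson interval −1.48 to −1.03) in footprints, and −1.89 and −1.52 in RNA-seq. Footprints on this leader, which holds the A-rich window, were therefore not sparser relative to the CDS than RNA-seq reads were. Among 3080 genes with at least 10 footprints and 30 counted nt in both regions, the footprint ratio of *Pabpc1* was at percentile 38.8, below the median of −0.91. Requiring footprints on the UTR leaves out genes with few of them there, so a second set, chosen after seeing the data, was taken by CDS density. Its genes had at least 10 footprints on the CDS and a CDS density that would put at least 10 on the UTR, whatever the UTR held. In this set of 4943 genes, 92 had no footprint on the 5′UTR, the median was −1.58 and *Pabpc1* was at percentile 59.7. Either set is chosen by a region that enters the ratio, so both percentiles are given below.

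*Pabpc1* also stood high in footprints on the 3′UTR, a region that translating ribosomes do not normally enter. It had 168 footprints there (95% Poisson interval 143 to 195) on 445 counted nt, 7.83% of its exon footprints. The log2 ratio of 3′UTR to CDS density was −1.32 (−1.55 to −1.09), at percentile 92.7 of 1178 genes with footprints on both regions, whose median was −4.75, and 98.9 of 8254 by CDS density, whose median was −5.87. In RNA-seq the same ratio of *Pabpc1* was −0.88 and −1.23, above the footprint interval in replicate 1 and within it in replicate 2. Whether these footprints come from ribosomes was not tested.

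*Npm1* differed from *Pabpc1* on both UTRs. Its 5′UTR held 403 footprints on 227 nt, an RPKM of 501 beside 3514 on the CDS, and the log2 ratio was −2.81 (−2.96 to −2.67), at percentile 7.79, or 22.9 by CDS density. In RNA-seq the *Npm1* 5′UTR was denser than the CDS, with an RPKM of 1315 and 1332 beside 606 and 552. The RNA-seq log2 ratio was 1.12 and 1.27, at percentiles 98.8 and 98.8 of 2373 and 2646 genes. By CDS density the percentiles were 99.6 and 99.6 of 7331 and 7799 genes. So the 5′UTR of *Npm1* was denser than its CDS in RNA-seq and sparser in footprints. The counted 227 nt are the length of the 5′UTR of Npm1-201, which starts 130 nt upstream of Npm1-203. On the 3′UTR, *Npm1* had 65.4 footprints on 609 nt, 0.571% of its exon footprints, against 30.9% and 27.7% of its RNA-seq counts. The log2 ratio of 3′UTR to CDS was −6.86 in footprints, at percentile 9.51, or 33.1 by CDS density, and 0.01 and −0.15 in RNA-seq.

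*Nap1l1* had the lowest UTR densities in footprints of the 4 genes. On its 5′UTR, 22.0 footprints (13.8 to 33.3) were counted on 337 nt, and the log2 ratio to the CDS was −5.07, at percentile 0.649, or 4.94 by CDS density. RNA-seq reads were nearly missing there as well, with 3.05 counts (0.640 to 8.84) in replicate 1 and 3.22 (0.715 to 9.09) in replicate 2. On these few counts the RNA-seq log2 ratio was −6.91 and −7.17, lower than in footprints. The 337 counted nt exceed the 145-nt 5′UTR of Nap1l1-207, the transcript with the TOP opening, and which positions they are is not given in the sources used here. On the 3′UTR, *Nap1l1* had 25.3 footprints on 1664 nt and a log2 ratio of −7.17, at percentile 6.62, or 29.6 by CDS density, where RNA-seq gave −0.38 and −0.56. The 3′UTR took 73.6% and 71.1% of the *Nap1l1* RNA-seq counts and 2.38% of its exon footprints.

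*Tpt1* had 72.8 footprints (57.0 to 91.6) on its 5′UTR, an RPKM of 131 beside 1265 on the CDS. The log2 ratio was −3.27 (−3.64 to −2.91), at percentile 4.64, or 16.6 by CDS density. In RNA-seq it was −3.45 in replicate 1 and −0.65 in replicate 2, so the comparison with mRNA on this region depends on the replicate. The *Tpt1* 3′UTR was counted over 30 nt only, with 12.3 footprints (6.40 to 21.3) and 50.6 and 57.2 RNA-seq counts. The log2 ratio to the CDS on this short stretch was −3.46 in footprints, at percentile 73.8, or 90.1 by CDS density, and −0.91 and −1.34 in RNA-seq. Its footprint RPKM there was 115, beside 106 for *Pabpc1*.

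No member had a denser 5′UTR than CDS in footprints. Of the genes with footprints on both regions 24.8% of 3080 did, and of those taken by CDS density 10.3% of 4943. None had a denser 3′UTR, where the shares were 3.74% of 1178 and 0.436% of 8254. On the 5′UTR, *Nap1l1* was below percentile 10 in both sets, and *Tpt1* and *Npm1* were so in the first set alone.

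**Figure D3:**
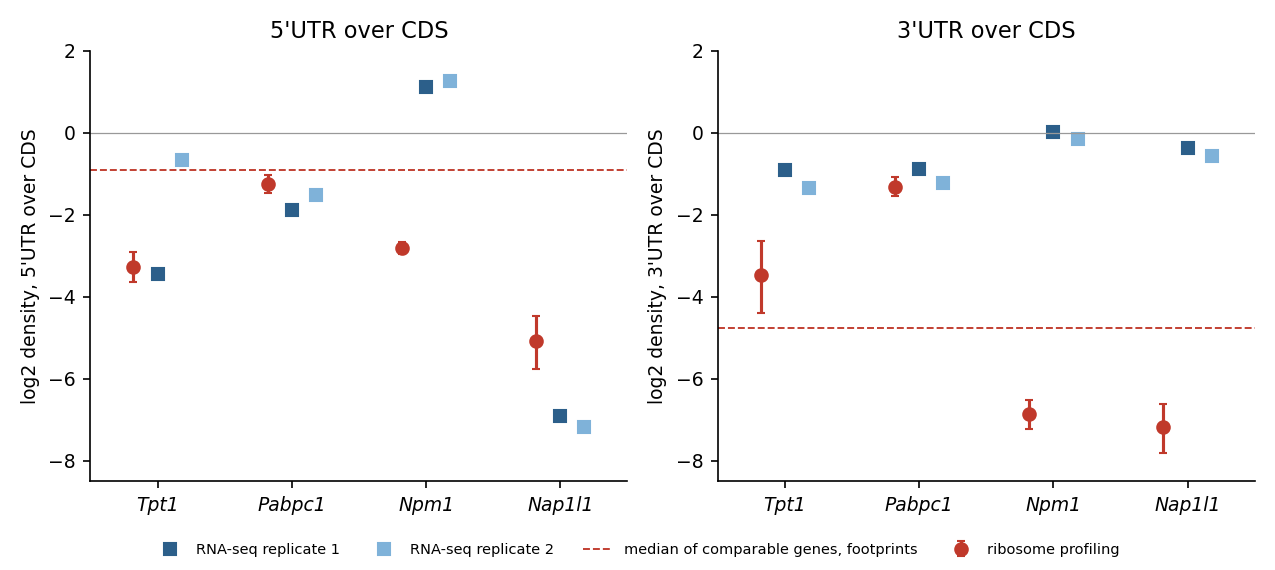
Log2 density on the 5′UTR (left) and 3′UTR (right) over the CDS for the 4 TOP genes, in footprints (red, bars for the 95% Clopper-Pearson interval) and in the RNA-seq replicates (blue squares), with the footprint median of genes with at least 10 footprints on both regions as a dashed line. *Pabpc1* has −1.25 in footprints and −1.89 and −1.52 in RNA-seq on the 5′UTR, while the *Npm1* values on the 3′UTR are −6.86 in footprints and 0.01 and −0.15 in RNA-seq.

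No protein coding transcript of the relatives *Npm3*, *Nap1l4* or *Pabpc4* opened with a TOP motif, although over any transcript the noncoding Pabpc4-207 did. *Nap1l1* exceeded *Nap1l4*, at 0.78 ± 0.05, by 2.07 ± 0.17 on the log2 scale, at 1.17 times its mRNA RPKM and 4.90 times its footprint RPKM. *Pabpc1* was 16.6 times as abundant as *Pabpc4* in mRNA RPKM but 3.22 times in footprint RPKM, and it was lower in log2 efficiency by a difference of −2.37 ± 0.26. *Pabpc4* itself was at −0.07 ± 0.17, with 22.9% of its CDS counted. The nuclear poly(A)-binding protein gene *Pabpn1* was at −0.07 ± 0.12. *Npm1* had 23.9 times the mRNA RPKM and 12.4 times the footprint RPKM of *Npm3*, a difference of −0.95 ± 0.44 in log2 efficiency. With RNA-seq over the CDS the difference between *Npm1* and *Npm3* was −0.18, while *Nap1l1* was still above *Nap1l4* by 1.83 and the difference between *Pabpc1* and *Pabpc4* was −2.57. Without division by length the 3 differences were −1.20, 0.73 and −2.31. *Nap1l1* thus stood above its relative and *Pabpc1* below in the 3 settings, with the gap of *Nap1l1* smallest without division by length. Of the other relatives listed, 5 of 7 in the poly(A)-binding family, 1 of 2 nucleoplasmins and 3 of 4 nucleosome assembly proteins did not pass the filters, among them *Pabpc5* and *Nap1l2* at 0 counts in the 3 libraries.

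**Figure D4:**
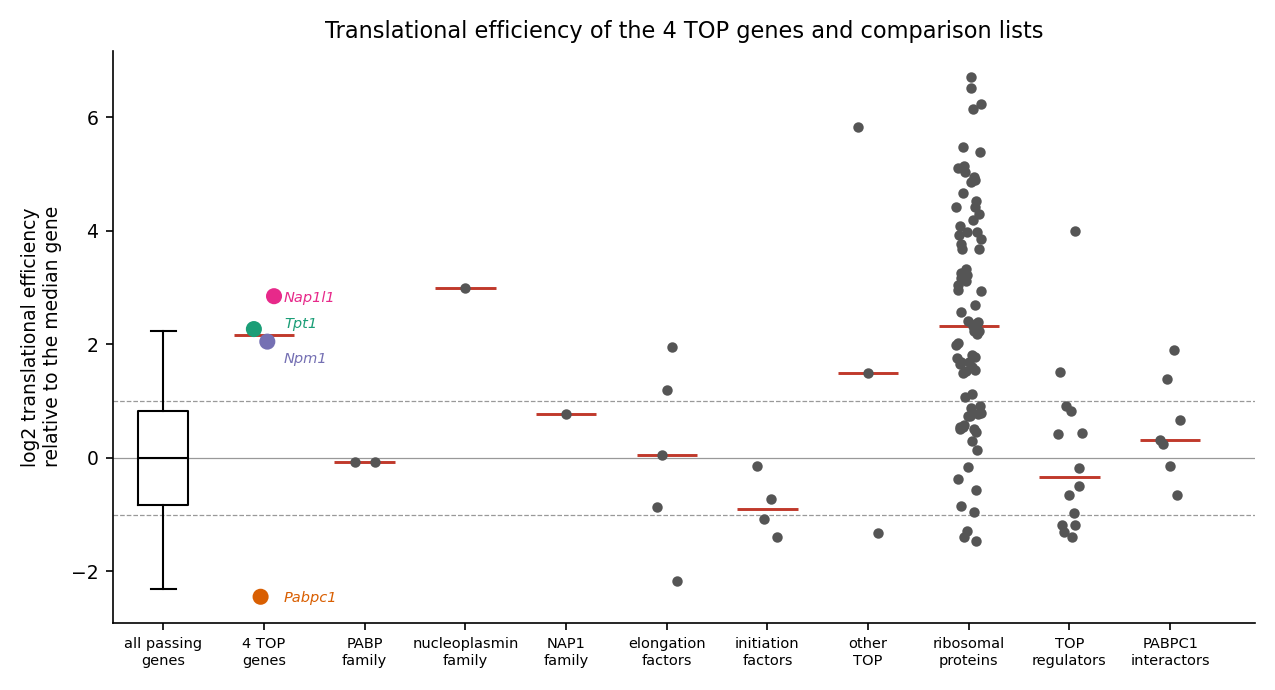
Log2 translational efficiency relative to the median gene for all 9863 passing genes (box from the lower to the upper quartile, whiskers at percentiles 5 and 95) and for single genes of each list, with red lines at list medians and dashed lines at 1 and −1. *Pabpc1* lies below the lower whisker and below every gene of the other lists drawn, and the ribosomal protein genes spread from −1.45 to 6.72.

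Other genes listed as TOP genes from general knowledge fell on both sides of the median as the 4 members did. An annotated TOP opening was found for 2 of the 5 elongation factors, 1 of the 4 initiation factors and 35 of the 79 ribosomal proteins over any transcript. The same held for 2 of 3 further genes, *Gnb2l1*, *Vim* and *Hnrnpa1*, beside 8.52% of 21877 genes. In efficiency *Pabpc1* was nearest to *Eef2*, the elongation factor that moves the ribosome along the mRNA, at −2.17 ± 0.11. Among the elongation factors *Npm1* was nearest to *Eef1g*, at 1.96 ± 0.05, while *Eef1a1*, which delivers aminoacyl-tRNA, was at −0.87. *Eef1g* had 20.4% of its CDS counted and was at 1.75 with RNA-seq over the CDS, beside 2.55 for *Npm1*. Of the 5 elongation factors, 2 were above 1 and 1 below −1, with a median of 0.06 that was −0.74 with RNA-seq over the CDS. Among all passing genes, 20.8% were above 1 and 21.1% below −1. The 4 initiation factors had a median of −0.91, with *Eif4b* at −1.39, *Eif3f* at −1.08, *Eif3h* at −0.73 and *Eif3e* at −0.14. *Gnb2l1*, the older symbol of *Rack1*, was at −1.31, *Vim* at 1.50 ± 0.67 on 41.9 footprints (2.05 against replicate 1 and 1.10 against replicate 2), and the entry that joins *Hnrnpa1* with *Gm10052* and *Gm5643* at 5.83. The 79 ribosomal protein genes had a median of 2.33, with 57 above 1 and 3 below −1, and *Rpl21* (6.72), *Rps25* (6.52), *Rplp1* (−1.45) and *Rpl4* (−1.39) at the ends. *Npm1* and *Tpt1* lay below that median, *Nap1l1* above it and *Pabpc1* below all 79. With RNA-seq over the CDS the median was 1.73, below *Npm1*, *Tpt1* and *Nap1l1*, and the lowest gene was at −1.97, still above *Pabpc1*. Over the CDS, *Rpl21*, *Rps25*, *Rplp1* and *Rpl4* were at 3.63, 5.23, −0.28 and −1.26. *Rpl21* and *Rps25* had 20.8% and 20.3% of the CDS counted. With at least 100 counts the ribosomal protein median was 1.85, beside 1.66 for *Npm1*, 1.88 for *Tpt1* and 2.46 for *Nap1l1*. The 32 ribosomal protein genes with at least 80% of the CDS counted had a median of 1.00, beside −0.06 for all 8390 such genes, and of the 4 members *Npm1* and *Pabpc1* met that limit. The 5 small nucleolar RNA host genes listed as TOP genes, such as *Gas5*, have no counted CDS and no efficiency.

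Genes that act on TOP mRNAs, or with PABPC1, had list medians nearer to the median gene than each of the 4 members. *Larp1* was at −0.50, *Mtor* at −1.30, *Rptor* at −0.65 and *Eif4ebp1*, a repressor of the cap-binding protein eIF4E, at 0.42, and the 14 regulators had a median of −0.34 with 2 above 1 and 4 below −1. *Eif4e* and *Larp4* were the 2 above 1, with 29.8% and 37.3% of the CDS counted. Of the 7 PABPC1 partners, which include *Paip1* (0.32), *Paip2* (0.25), *Eif4g1* (−0.15) and the termination factor *Gspt1* (1.91), 2 were above 1 and none was below −1, and the median was 0.32. Among all passing genes, 20.8% were above 1 and 21.1% below −1. With RNA-seq over the CDS, *Paip1* was at −1.18, *Gspt1* at 0.78 and the median of the partners at 0.04. An annotated TOP opening over any transcript was found for 0 of the 14 regulators and 2 of the 7 partners, beside 8.52% of 21877 genes.

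The genes closest to each member over log2 RPKM in the 3 libraries were sought among the 4829 genes whose counts reached 100 in each library. *Pabpc1* was closest to the basal keratinocyte collagen *Col17a1*, at a Euclidean distance of 0.45, with *Cpe* and *Prdx5* next at 1.33 and 1.55. *Col17a1* had a footprint RPKM of 324 and RNA-seq RPKM of 946 and 1024, and a log2 efficiency of −1.95. Of the 4 genes, *Pabpc1* had the most distant neighbours after the nearest one. *Npm1* was closest to the ribosomal protein genes *Rpl7a* (0.25) and *Rpl35* (0.40). *Tpt1* was closest to *Myl6* (0.47), *Rps2* (0.54) and *Nme1* (0.59). *Nap1l1* was closest to *Tmed2* (0.06), *Nhp2l1* (0.08) and *Ube2l3* (0.16).

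**Figure D5:**
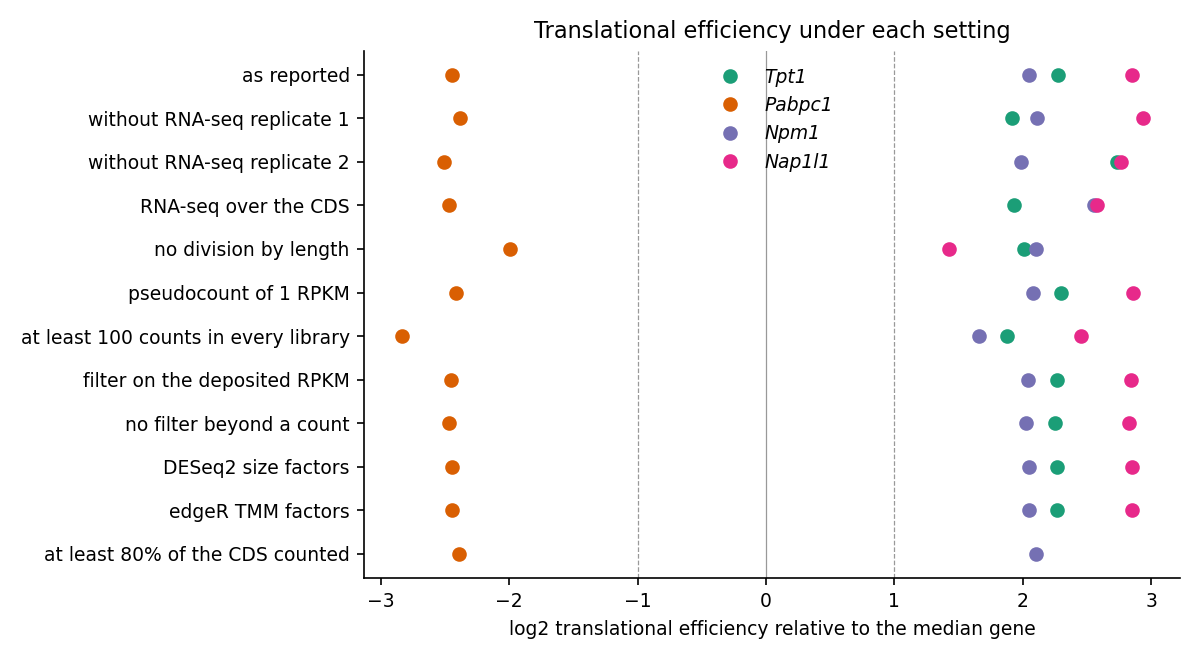
Log2 translational efficiency relative to the median gene (x axis) of the 4 TOP genes as reported and under 11 other settings (y axis). *Pabpc1* stays between −2.84 and −2.00 and the other 3 genes above 1, with *Tpt1* and *Nap1l1* not drawn where at least 80% of the CDS had to be counted.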

How the data were processed

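The authors trimmed reads with Trim Galore, aligned them to GRCm38 with STAR 2.6.1, removed ribosomal, mitochondrial and tRNA matches from ribosome profiling with Bowtie2 2.4.1 (versions from the submitters' processing notes), and counted reads with Plastid. They deposited estimated counts over exons, CDS and UTRs, which need not be whole, and RPKM values beside them. The annotation release, the masked positions and the use of strand in counting are not given in the sources used here. The RPKM values the authors deposited use library totals of which exon counts were 1.75%, 21.1% and 21.3%, so RPKM was recomputed from counts, counted length and summed exon counts.

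Calculations used Python 3.11.15, numpy 2.4.6, pandas 2.3.3 and scipy 1.17.1, figures matplotlib 3.10.9. The base mean used size factors from DESeq2 1.42.0 in R 4.3.3 on counts rounded to whole numbers. The RNA-seq replicates, labelled as separate samples, were kept as 2 samples. No test between conditions was possible with the 1 condition in the files used. The calculation was tested on simulated counts. Counted share is counted CDS over the annotated CDS of that name in GENCODE M21, given for 95.2% of passing genes. Intervals used the estimated counts as they are.

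Members, comparison lists and marker lists were chosen with earlier results of these data known. Genes named are the members, those lists, the 2 highest and 2 lowest ribosomal protein genes and the 3 nearest genes to each member, of which 1 is not reported here. Alternatives were each RNA-seq replicate left out, RNA-seq over the CDS, no length division, a pseudocount, other filters, DESeq2 size factors and edgeR 4.0.16 TMM factors. Another set of genes for the UTR ratios was added after seeing the data. The wild-type libraries, further SCC ribosome profiling libraries, long-read and CAGE libraries were not analysed here.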

Additional observations from a re-analysis of the deposited data

How the results depend on the processing

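The log2 translational efficiency of the 4 genes kept its sign and stayed beyond 1 or −1 under each alternative that gave a value. With 1 RNA-seq replicate left out in turn it ranged from 1.91 to 2.73 for *Tpt1*, from −2.51 to −2.38 for *Pabpc1*, from 1.99 to 2.11 for *Npm1* and from 2.77 to 2.94 for *Nap1l1*. Without replicate 1, *Tpt1* at 1.91 was below *Npm1* at 2.11. Without length division, *Pabpc1* was at −2.00, *Nap1l1* at 1.42, below *Tpt1* at 2.01 and *Npm1* at 2.10, and the median of the 4 at 1.72. With at least 100 counts in every library, *Pabpc1* was at −2.84, *Npm1* at 1.66, *Nap1l1* at 2.46 and the median at 1.77. RNA-seq over the CDS gave 2.55 for *Npm1* and 2.58 for *Nap1l1*. The pseudocount, the filter on deposited RPKM, no filter, DESeq2 and TMM factors moved the 4 genes by less than the SD between RNA-seq replicates. A change of filter alters only the median gene, so it shifts the 4 genes alike and cannot change their order. DESeq2 and TMM factors only reweight the RNA-seq replicates against each other. Small shifts under these filters and factors were therefore largely set by the calculation. Where at least 80% of the CDS had to be counted, *Tpt1*, *Nap1l1* and the median of the 4 had no value. Among the lists, the elongation factor median of 0.06 was −0.74 with RNA-seq over the CDS, −0.22 without length division and −0.34 with at least 100 counts. It was 0.22 with at least 80% of the CDS counted. The median of the PABPC1 partners was −0.51 and that of the initiation factors −0.24 without length division, while with at least 100 counts the initiation factors were at −1.30 and the ribosomal proteins at 1.85. The partners were at 0.06 with at least 100 counts and at 0.51 with 80% of the CDS counted. The regulator median was 0.05 with at least 100 counts and −0.75 with 80% of the CDS counted, and the poly(A)-binding family median of −0.07 was 0.08 over the CDS, 0.17 without length division and −0.46 with at least 100 counts. The ribosomal protein median of 2.33 was 1.73 over the CDS and 1.06 with 80% of the CDS counted. The filter of at least 100 counts takes the median gene from fewer genes. Its new median moved the 4 genes, and the elongation and initiation factor medians, down alike. The cause of the other shifts was not tested.

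Divided by the RNA-seq ratio of 1 replicate at a time, the log2 5′UTR to CDS ratio changed sign for *Pabpc1* (0.27 to 0.64) and *Nap1l1* (1.84 to 2.10, on about 3 RNA-seq counts), and for *Tpt1* it ranged from −2.61 to 0.18, the higher value without replicate 2. For *Npm1* it was −4.08 to −3.93. The 3′UTR to CDS ratio became −2.55 to −2.12 for *Tpt1*, −0.43 to −0.086 for *Pabpc1*, −6.87 to −6.71 for *Npm1* and −6.79 to −6.61 for *Nap1l1*. Adding 0.5 count moved each of the 8 ratios by less than its counting interval. No paired analysis was possible because the files used hold 1 condition and 1 ribosome profiling library. Further libraries the study names were not analysed here. With the genes compared on UTR ratios taken by CDS density, an alternative chosen after seeing the data, each of the 8 percentiles rose, for the *Npm1* 5′UTR from 7.79 to 22.9, and the share of genes with a denser 5′UTR than CDS fell from 24.8% to 10.3%.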
